A study of Homo sapiens with 9 samples.

Results

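The main axis of variation among 9 arrays of K562 cells ran between 6 arrays, 1 of each calreticulin construct at either end. Side A held DEL_3, INS_3 and WT_2, and side B held DEL_2, INS_2 and WT_3, named by construct and replicate number as in the labels. The arrays of each side were chosen by their measured similarity over all genes, so every difference between them is given as a description without a test. The remaining 3 arrays, DEL_1, INS_1 and WT_1, belonged to neither side. K562 is a human leukaemia cell line that can take on erythroid or megakaryocytic features.

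Del52 cells carried calreticulin (CALR) with the deletion mutation, Ins5 cells carried it with the insertion mutation, and WT cells carried the wild-type form, with 3 arrays each. Calreticulin is a calcium-binding chaperone of the endoplasmic reticulum, and both mutations are known from myeloproliferative neoplasms. In all 3 groups the construct was delivered to K562 cells by retroviral supernatant in 4 cycles, 1 every 12 h, followed by 36 h of further culture. Transduced cells were then selected with magnetic beads for the surface marker NGFR, to a purity above 90% when read 48 h after the selection. Each sample was therefore a selected mixture of transduced cells and not a clone, the labels state no alteration of the cells' own CALR genes, and untransduced or empty-vector cells were not analysed here. No label says that the replicates came from separate cultures, so the spread between them may be technical. In these bulk samples, fewer cells of a type and less RNA per cell cannot be told apart.

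Several programmes known from cultured cells served to describe the axis. In the integrated stress response, phosphorylation of the initiation factor eIF2 lowers general translation and favours the making of the transcription factor ATF4, which induces genes for amino acid synthesis, amino acid import and feedback. SREBP2 drives the enzymes of cholesterol synthesis when membrane sterol is low, and HSF1 drives cytosolic chaperones. AP-1 factors such as JUN and ATF3 respond within minutes to hours to mitogens and stress.

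The deposited values had a property that bears on everything below. For each of 49386 probe sets, controls included, the mean over the 3 arrays of a replicate number equalled the mean over all 9 arrays, with a largest deviation of 4.44e-05 log2 units and 0 probe sets beyond a tolerance of 0.0001. Group means had no such property and deviated by up to 0.69 in Del52, 0.58 in Ins5 and 0.56 in WT. The sources used here do not name the step that made the replicate means equal. It follows by arithmetic that the WT difference between the sides, WT_2 minus WT_3, was the sum of the Del52 and Ins5 differences, and the largest residual over all genes was 0.0002. Only 2 of the 3 within-construct differences were therefore free, and all 3 had the same sign whenever those of Del52 and Ins5 did. The mean of the arrays of replicate 1 was fixed midway between the sides for every gene. The centred values of the 9 arrays had 6 principal components with variance above 0.

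The data thus did not bear out the name of a state that the cultures of all constructs shared. On side A the mutant arrays had replicate number 3 and the WT array number 2, and on side B the reverse. A state that WT cells had in one replicate and mutant cells in the other, and a difference between mutant and WT cells that reversed between replicates 2 and 3, cannot be told apart in values with equal replicate means. The sides are called A and B for this reason.

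The first component held 70.5% of the variance and the second held 10.0%. On the first component the scores of side A were 0.27 in DEL_3, 0.30 in INS_3 and 0.57 in WT_2, and those of side B were -0.30 in DEL_2, -0.27 in INS_2 and -0.57 in WT_3. The nearest array outside the sides was DEL_1 with a score of 0.11, and INS_1 and WT_1 had -0.06 and -0.05. The WT arrays lay outermost at both ends. When Del52 and Ins5 differ in the same direction, the equal replicate means require the distance between WT_2 and WT_3 to be the largest. The root mean square of the difference between the sides over 18239 genes was 0.27 log2 units in Del52, 0.27 in Ins5 and 0.50 in WT. Across these genes the Del52 and Ins5 differences, which shared no array but shared the adjustment of replicate means, correlated at 0.73, given as a description.

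**Figure D1:**
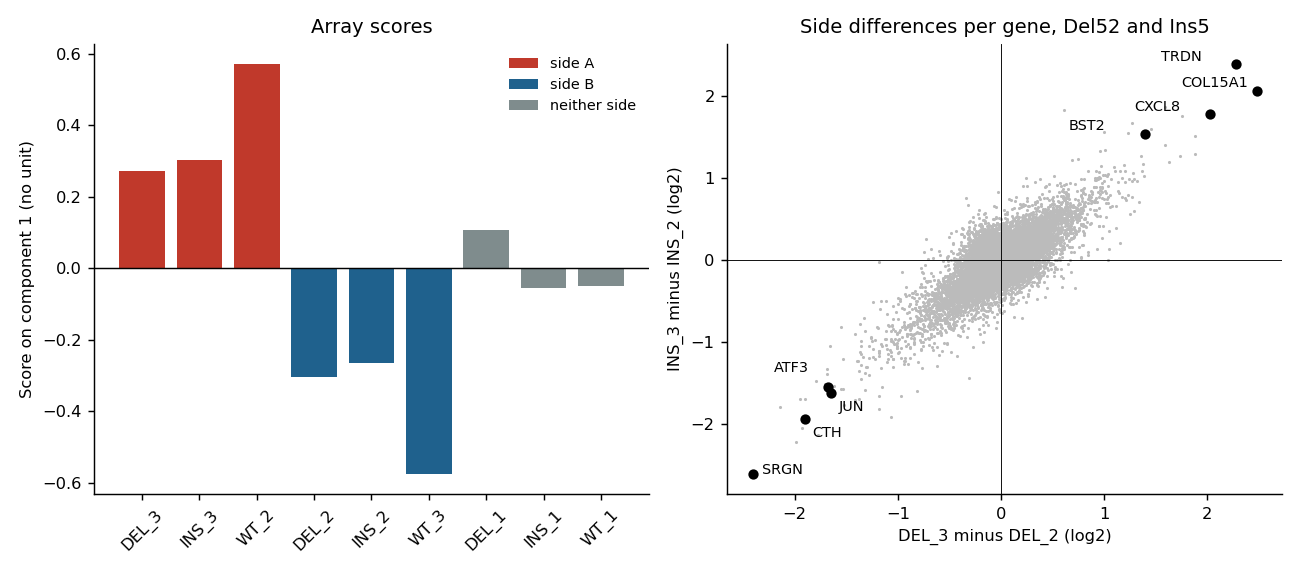
Left, the score of each array on the first principal component (no unit), with side A in red, side B in blue and the arrays of replicate 1 in grey; right, each point is a gene, with the difference between the sides in Del52 on the x axis and in Ins5 on the y axis (both log2). Side A scores lie between 0.27 and 0.57 and side B scores between -0.57 and -0.27, and the 8 named genes lie in the quadrants where both constructs differ in the same direction.

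A gene was counted as higher or lower when the mean of its 3 within-construct differences was at least 1 log2 unit (2-fold) in size and all 3 had the same sign. By this rule 131 genes (0.718% of all genes) were higher on side A than on side B, and 230 genes (1.26%) were lower. The rule used this contrast, so nothing is read from these shares. Below, some genes are said to be separate, or not to overlap, between the sides. The sides were set from these same values, and the share of all genes with separate sides is not given. Nothing is therefore read from such separation. Without the WT pair, whose difference is the sum of the other pairs, 46 genes were higher and 101 lower, and without the Ins5 pair 213 were higher. Of 59 genes beyond the limit named by a set rule, 16 fell short of it without the WT pair, among them the named cholesterol genes. A further choice was the probe set: with the mean of all probe sets of a gene, 11 of the 59 fell short, and their values on that setting are given with the genes. All 3 differences had the same sign in 10955 genes, 60.1% of all (33.0% with 3 positive and 27.1% with 3 negative differences), and the median difference over all genes was 0.02. SPATC1L (1.0035) and LIPA (1.0042) lay just inside the limit, and SOCS3 (0.9994) and EGLN3 (0.9993) just outside it.

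Of the 7 genes that mark the axis, 3 were higher on side A. COL15A1 encodes a collagen of basement membranes. Its log2 level was 8.59 in DEL_3, 8.55 in INS_3 and 9.35 in WT_2, against 6.10 in DEL_2, 6.49 in INS_2 and 4.81 in WT_3. The lowest array of side A stood above the highest of side B, and the mean difference of 3.03 corresponded to 8.17-fold. CXCL8 encodes interleukin 8, a chemokine that attracts neutrophils. Its level was 6.55 in DEL_3, 6.60 in INS_3 and 7.63 in WT_2, against 4.52 in DEL_2, 4.83 in INS_2 and 3.83 in WT_3, a mean difference of 2.53 (5.79-fold). The sides did not overlap for CXCL8, and its 2 dimmer probe sets differed by 1.75 and 1.20 in the same direction. BST2 encodes tetherin, an interferon-induced membrane protein that retains budding viruses. Its level was 8.92 in DEL_3, 8.92 in INS_3 and 9.45 in WT_2, against 7.53 in DEL_2, 7.38 in INS_2 and 6.52 in WT_3, a mean difference of 1.95 (3.87-fold). Again the sides were separate. Of the other BST2 probe sets 2 differed by 1.99, and the dimmest, at 2.07 to 2.20 on every array, by -0.01.

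The other 4 marking genes were lower on side A. SRGN encodes serglycin, the proteoglycan that packs the granules of blood cells. Its log2 level was 3.12 in DEL_3, 3.09 in INS_3 and 1.72 in WT_2, against 5.53 in DEL_2, 5.69 in INS_2 and 6.73 in WT_3. Its mean difference of -3.34 (10.1-fold lower) was the largest of all genes, and it rested on 1 probe set whose WT_2 value lay near the low end of the antigenomic controls (1.53 to 6.52 over 23 probe sets). CTH encodes cystathionine gamma-lyase, which makes cysteine by transsulfuration and is induced by ATF4. It read 6.53 in DEL_3, 6.38 in INS_3 and 5.43 in WT_2, against 8.42 in DEL_2, 8.32 in INS_2 and 9.27 in WT_3, a mean difference of -2.56 (5.89-fold lower). The CTH values of the sides were more than 1 log2 unit apart at their closest. ATF3, a stress-induced factor of the ATF4 pathway, read 6.45 in DEL_3, 6.48 in INS_3 and 5.74 in WT_2, against 8.13 in DEL_2, 8.02 in INS_2 and 8.96 in WT_3, a mean difference of -2.15. JUN, an AP-1 subunit, read 6.09 in DEL_3, 6.02 in INS_3 and 5.41 in WT_2, against 7.73 in DEL_2, 7.65 in INS_2 and 8.68 in WT_3, a mean difference of -2.18. Neither gene overlapped between the sides. All 4 JUN probe sets differed by -2.18 to -1.87. Of the 7 ATF3 probe sets, 4 differed by -2.24 to -2.07, and the 3 dimmest by -0.16 to -0.05, with an average of -1.28.

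**Figure D2:**
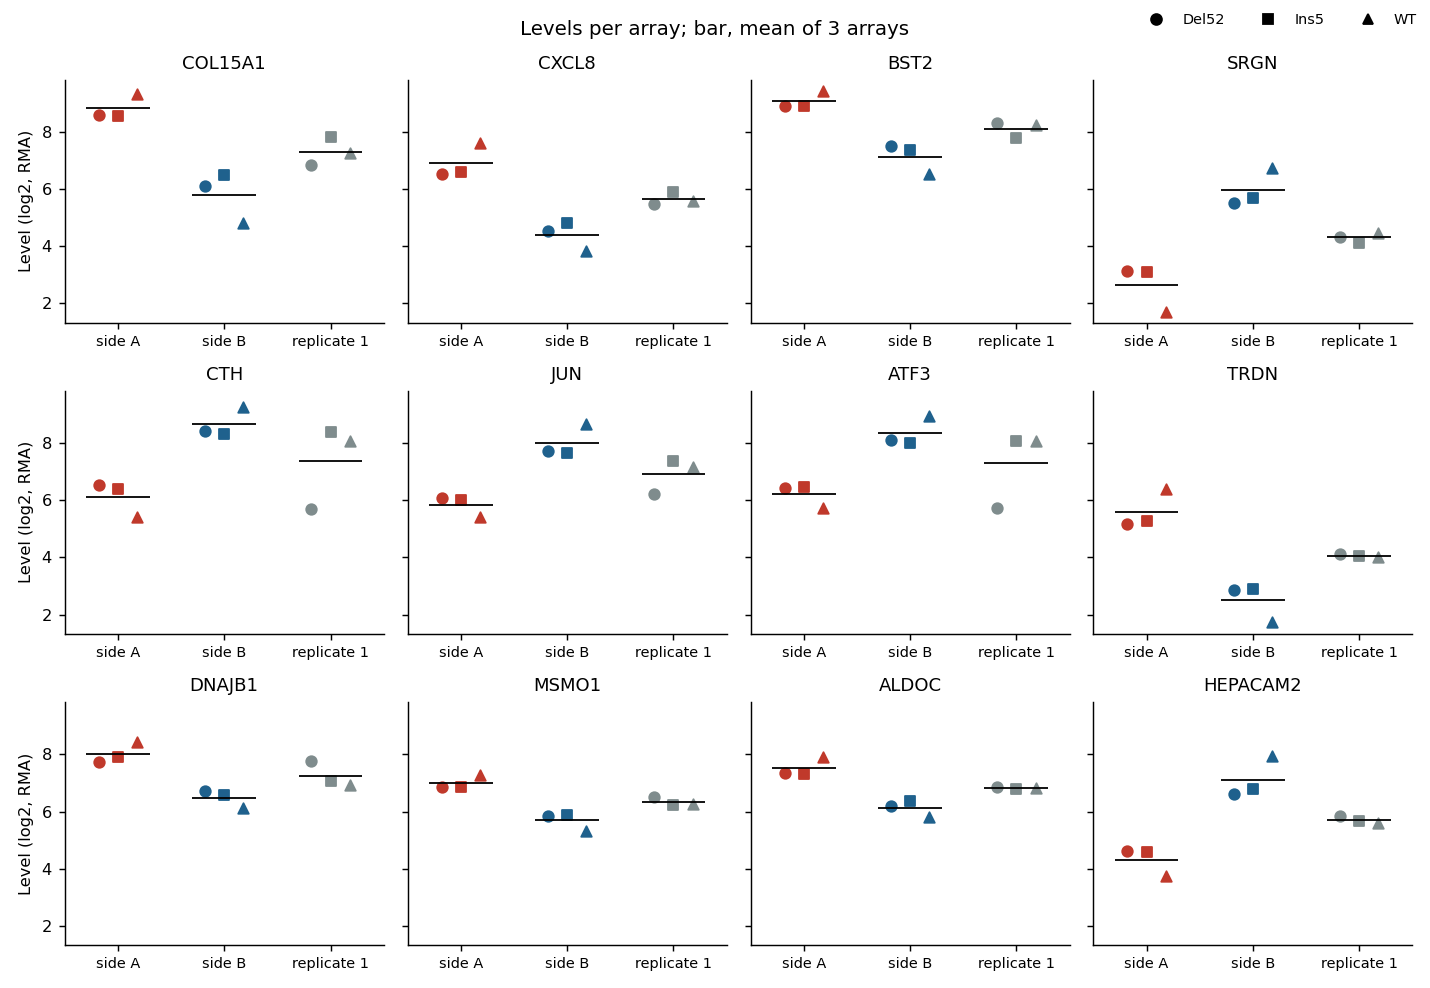
Log2 RMA level (y axis) of 12 genes on side A (red), side B (blue) and the arrays of replicate 1 (grey), with a circle for Del52, a square for Ins5, a triangle for WT and a bar at the mean of the 3 arrays. The WT triangle is the outermost point on both sides, and among the arrays of replicate 1 the CTH, ATF3 and JUN values of Del52 lie below the other 2.

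Apart from these markers, the genes with the largest positive differences encode proteins of varied kinds. TRDN encodes triadin, a partner of the ryanodine receptor in muscle. It read 5.16 in DEL_3, 5.27 in INS_3 and 6.40 in WT_2, against 2.88 in DEL_2, 2.89 in INS_2 and 1.73 in WT_3. The mean difference was 3.11 in this probe set and 1.90, 0.07 and -0.04 in the other 3, so the probe sets disagreed, with an average of 1.26. F2RL3, the thrombin receptor PAR4, read 4.74 in DEL_3, 5.37 in INS_3 and 6.35 in WT_2, against 3.15 in DEL_2, 3.51 in INS_2 and 2.90 in WT_3 (mean difference 2.30, or 1.08 as the mean of its probe sets). IGFBP2, a binding protein of insulin-like growth factors, read 5.76 in DEL_3, 5.57 in INS_3 and 6.24 in WT_2, against 3.87 in DEL_2, 4.07 in INS_2 and 2.85 in WT_3 (mean difference 2.26). Both genes were separate between the sides. The mean difference was 2.34 for AMIGO2, a neuronal adhesion molecule (1.38 over its probe sets), 2.12 for TWIST1, a basic helix-loop-helix factor of mesenchyme, and 2.03 for CPZ, a secreted carboxypeptidase. GIMAP2 (2.00), a GTPase of lymphoid cells, KIF9 (1.99, but 0.72 over its probe sets), a kinesin, TEX11 (1.96), a meiosis gene, SUSD3 (1.88), NRROS (1.85), which anchors latent TGF-beta, and NR2F6 (1.75), a nuclear receptor, completed the 15 largest. In WT_3 TWIST1 read 1.28 and TEX11 1.32, below the lowest antigenomic control (1.53).

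The largest negative differences after SRGN also belonged to proteins of varied kinds. HEPACAM2, an immunoglobulin-domain protein, read 4.61 in DEL_3, 4.57 in INS_3 and 3.73 in WT_2, against 6.60 in DEL_2, 6.79 in INS_2 and 7.93 in WT_3. Its mean difference was -2.81, and -2.61 in its second probe set. ACRBP, a proacrosin-binding protein found in sperm and platelets, read 5.26 in DEL_3, 4.92 in INS_3 and 3.96 in WT_2, against 7.19 in DEL_2, 6.96 in INS_2 and 7.94 in WT_3 (mean difference -2.65). The sides of both genes were at least 1 log2 unit apart. RELN (-2.62), the secreted glycoprotein reelin, ANXA3 (-2.60), an annexin, SLC27A6 (-2.43), a fatty acid transporter, and PPIC (-2.40), a secretory-pathway prolyl isomerase, followed. EPAS1, which encodes the hypoxia-inducible factor HIF-2 alpha, differed by -2.20, the membrane protein SMIM14 by -2.18, carbonic anhydrase CA13 by -2.14, the LIM protein AJUBA by -2.10 and the lectin CLEC2B by -2.08. As the mean of their probe sets EPAS1, CA13 and CLEC2B differed by -1.40, -1.10 and -1.06.

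In the probe sets used, the transduced gene and the selection marker did not follow the axis. CALR read 7.40 in DEL_3, 7.26 in INS_3 and 7.67 in WT_2, against 7.25 in DEL_2, 7.47 in INS_2 and 7.73 in WT_3, with a mean difference of -0.04. Its second, dimmer probe set was higher on side A in each construct, with a mean difference of 0.22. That probe set read 3.68 to 4.01 in the WT arrays and 4.17 to 4.47 in the mutant arrays. NGFR differed by -0.06 and read 3.33 to 3.44 on side A and 3.43 to 3.45 on side B, within the span of the antigenomic controls. Where the CALR probes lie relative to the introduced sequences is not given in the sources used here, so these levels do not check the labels.

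The pathways were described with 32 gene lists of 891 genes, of which 819 were measured. Counts of members are to be read against all genes, of which 0.718% were higher and 1.26% lower on side A. All 3 differences were positive in 33.0% of genes and negative in 27.1%. The lists were chosen with earlier results known, so these counts are descriptions. The median difference was at least 0.2 log2 units in size in 6 lists, against 0.02 over all genes. It was lower on side A in the list of serine, asparagine, proline and transsulfuration enzymes (-0.32) and in the ATF4 pathway (-0.28). It was higher on side A for cholesterol and lipid synthesis (0.40), cytosolic heat shock genes (0.30), glycolysis and hypoxia (0.26), and ribosome biogenesis and MYC targets (0.25).

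**Figure D3:**
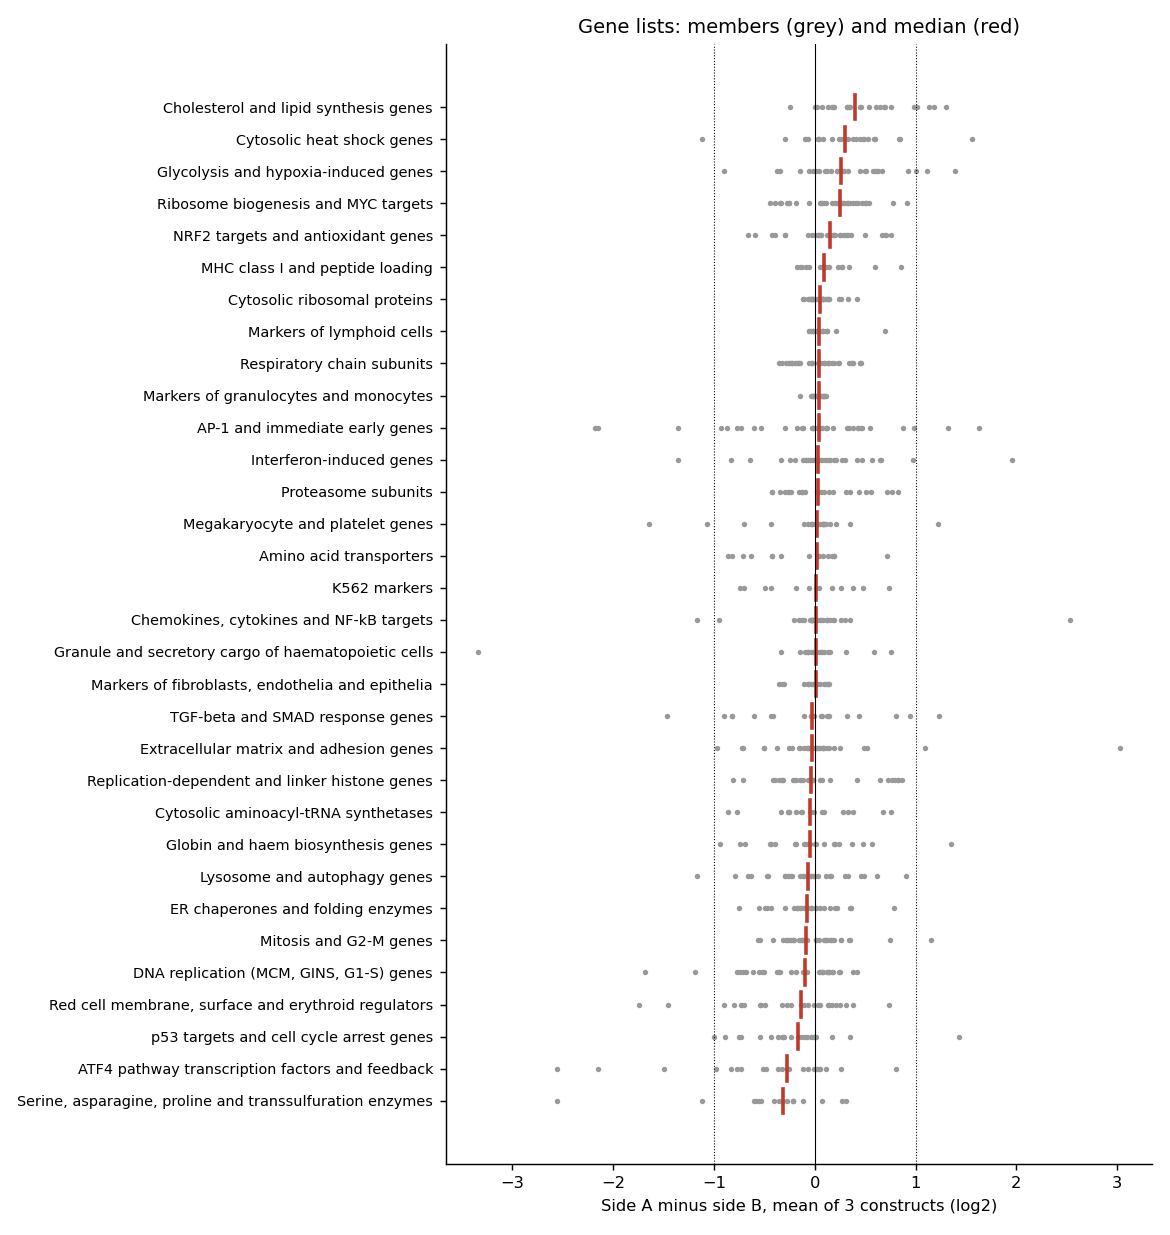
Difference between side A and side B, mean of the 3 constructs (x axis, log2), for the measured members (grey) of 32 gene lists ordered by their median (red bars), with dotted lines at 1 log2 unit in either direction. Medians run from -0.32 for serine, asparagine, proline and transsulfuration enzymes to 0.40 for cholesterol and lipid synthesis, while single members of lists with medians near 0 lie beyond 1 log2 unit.

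Of the 23 measured genes of the ATF4 pathway, 3 were lower by the rule, CTH, ATF3 and NUPR1, and 0 were higher. All 3 within-construct differences were negative in 13 and positive in 2, shares to be read against the 27.1% and 33.0% of all genes. NUPR1, a small stress-induced chromatin protein, read 4.04 in DEL_3, 4.19 in INS_3 and 3.48 in WT_2, against 5.29 in DEL_2, 5.18 in INS_2 and 5.72 in WT_3 (mean difference -1.49). Further members, chosen after their values were seen, were not alike. CHAC1, a glutathione-degrading enzyme, differed by -0.98, PPP1R15A, the eIF2 phosphatase subunit GADD34, by -0.83, and STC2, a secreted glycoprotein, by -0.77. ATF4 itself differed by 0.11, DDIT3, which encodes CHOP, by 0.26, TRIB3, a pseudokinase of the feedback arm, by -0.01, and ATF5 by 0.81. Members of the pathway thus lay on both sides of 0.

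Among 17 enzymes of the second list, 2 were lower on side A by the rule, CTH and PCK2. In 14 all 3 differences were negative, against 27.1% of all genes. PCK2, the mitochondrial phosphoenolpyruvate carboxykinase, read 6.49 to 7.11 on side A and 7.89 to 8.16 on side B, a mean difference of -1.12. The serine synthesis enzymes PSPH (-0.61), PHGDH (-0.53) and PSAT1 (-0.32) and the mitochondrial folate enzyme MTHFD2 (-0.59) had negative values, as did asparagine synthetase, ASNS (-0.40). SHMT2, the mitochondrial serine hydroxymethyltransferase, differed by 0.31. Amino acid transporters (17 measured, 0 beyond the limit, median 0.02) were led by SLC1A4 at -0.87, a carrier of alanine, serine and cysteine. The 19 aminoacyl-tRNA synthetases had 0 beyond the limit and a median of -0.05, with the seryl-tRNA synthetase SARS1 at -0.86.

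The ATF4 pathway and CXCL8 gave reason to look at promoter sequence. The windows below are the 250 bases upstream of the start in RefSeq (GRCh38.p14), printed 5′ to 3′ on the strand of the gene. Capitals mark the letters TGATGNAA, on which ATF4 and C/EBP partners are known to bind, on either strand, or in CXCL8 the AP-1 motif TGANTCA. The first 3 genes belong to the ATF4 pathway or its targets and differed by -2.15 (ATF3), -0.98 (CHAC1) and -0.40 (ASNS), and CXCL8 differed by 2.53. ATF3 and ASNS each had a second annotated start whose window held no match, and the window with the match is shown.
ATF3, chr1:212565157-212565406, plus strand: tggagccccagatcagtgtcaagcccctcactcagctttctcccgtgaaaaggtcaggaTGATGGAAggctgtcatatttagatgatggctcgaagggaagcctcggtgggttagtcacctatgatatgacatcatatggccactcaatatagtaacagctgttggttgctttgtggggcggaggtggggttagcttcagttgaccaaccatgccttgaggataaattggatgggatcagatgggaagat
CHAC1, chr15:40953221-40953470, plus strand: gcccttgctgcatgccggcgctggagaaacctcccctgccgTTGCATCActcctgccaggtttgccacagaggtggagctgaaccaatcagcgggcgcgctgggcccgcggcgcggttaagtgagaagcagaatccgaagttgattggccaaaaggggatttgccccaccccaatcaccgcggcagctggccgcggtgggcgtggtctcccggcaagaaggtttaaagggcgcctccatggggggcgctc
ASNS, chr7:97872409-97872658, minus strand: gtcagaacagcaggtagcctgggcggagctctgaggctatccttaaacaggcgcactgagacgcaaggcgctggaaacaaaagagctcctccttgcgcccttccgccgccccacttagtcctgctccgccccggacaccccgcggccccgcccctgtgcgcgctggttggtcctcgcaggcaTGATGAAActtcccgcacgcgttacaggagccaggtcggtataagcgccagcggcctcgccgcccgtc
CXCL8, chr4:73740319-73740568, plus strand: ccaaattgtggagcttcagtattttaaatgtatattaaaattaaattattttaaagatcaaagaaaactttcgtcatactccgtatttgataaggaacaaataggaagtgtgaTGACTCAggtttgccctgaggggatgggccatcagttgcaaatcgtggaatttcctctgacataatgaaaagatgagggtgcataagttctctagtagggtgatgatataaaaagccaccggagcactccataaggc

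Counted from the start, with negative numbers upstream, the first base of the match was at -191 in ATF3, -209 in CHAC1 (where it reads TGATGCAA on the other strand), -68 in ASNS and -137 in CXCL8. Windows of 300 bases, 250 before and 50 after each start, were searched on both strands for all genes. TGATGNAA was found in 5 of 33 windows (15.2%) of the ATF4 pathway, of whose 23 genes 20 had a window. It was found in 18 of 311 windows (5.79%) of genes lower on side A, of which 187 of 230 had a window, and in 1270 of 35116 windows of the whole table (3.62%). TGANTCA occurred in 25 of 311 windows of genes lower on side A (8.04%) and in 7.71% of all windows. The CTH and JUN windows held no TGATGNAA or TGANTCA, which says only that these letters are not in that stretch. A set needed a window for at least 80% of its genes. Genes higher on side A (78.6%) and all measured genes (79.5%) fell short, so their shares are void: TGATGNAA in 2 of 156 windows (1.28%) and in 549 of 20506 (2.68%), and TGANTCA in 8 of 156 (5.13%) and in 6.19%. Windows of the same gene can overlap, and a match is not a binding site.

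Immediate early and AP-1 genes lay in both directions. Of 38 measured members, 2 were higher on side A, EGR1 and IER2, and 3 were lower, JUN, ATF3 and KLF6, with a median of 0.04. EGR1, a zinc-finger factor induced by mitogens, read 7.65 in DEL_3, 8.88 in INS_3 and 9.53 in WT_2, against 7.04 in DEL_2, 7.05 in INS_2 and 7.09 in WT_3 (mean difference 1.63). The 3 arrays of side B lay within 0.1 log2 units of each other, while those of side A spanned almost 2 log2 units. IER2, another immediate early gene, read 8.31 in DEL_3, 8.76 in INS_3 and 9.20 in WT_2, against 7.56 in DEL_2, 7.53 in INS_2 and 7.23 in WT_3 (mean difference 1.32). KLF6, a Krüppel-like factor, read 6.39 in DEL_3, 6.34 in INS_3 and 5.90 in WT_2, against 7.36 in DEL_2, 7.41 in INS_2 and 7.94 in WT_3 (mean difference -1.36, or -0.90 over its probe sets). FOS differed by 0.18.

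Secreted and interferon-linked members were single genes and not whole lists. In the list of chemokines and NF-kB targets, 1 of 28 was higher on side A (CXCL8) and 1 lower, TNFAIP3, which encodes the NF-kB inhibitor A20 (-1.17, or -0.93 over its probe sets), with a median of 0.01. CXCL2, another neutrophil chemokine, differed by 0.30. Of 37 interferon-induced genes, 1 was higher (BST2) and 1 lower (OAS3, an oligoadenylate synthetase, -1.36, but -0.65 over its probe sets), with a median of 0.03, and IFITM1 differed by 0.66. The extracellular matrix list had 2 of 37 higher, COL15A1 and SPARC (1.09, or 0.73 over its probe sets), a matrix glycoprotein, and a median of -0.03. In the list of granule cargo SRGN was the only one of 19 beyond the limit.

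Cholesterol and lipid synthesis was the list with the highest median. Of 26 measured members 4 were higher on side A by the rule, against 0.718% of all genes, and 0 were lower. In 22 all 3 differences were positive, against 33.0% of all genes. MSMO1, the sterol C4-methyl oxidase, read 6.85 in DEL_3, 6.85 in INS_3 and 7.27 in WT_2, against 5.86 in DEL_2, 5.89 in INS_2 and 5.31 in WT_3 (mean difference 1.30). DHCR7, the last enzyme of cholesterol synthesis, read 7.27 in DEL_3, 7.02 in INS_3 and 7.50 in WT_2, against 6.24 in DEL_2, 6.27 in INS_2 and 5.73 in WT_3 (mean difference 1.18). These genes and HMGCS1 (1.14), the hydroxymethylglutaryl-CoA synthase, did not overlap between the sides. ACLY, which makes cytosolic acetyl-CoA from citrate, differed by 1.01, CYP51A1 by 0.98 and INSIG1, a sterol-sensing regulator, by 0.75. The factors SREBF1 and SREBF2 differed by 0.19 and 0.02. The sterol regulatory motif TCACNCCAC occurred in 1 of 31 windows of this list (3.23%) and in 1.13% of all windows. That match was in SREBF2, which differed by 0.02, and in none of the 4 genes higher by the rule.

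Cytosolic heat shock genes held 1 higher and 1 lower gene among 25. DNAJB1, an HSP40 co-chaperone, read 7.72 in DEL_3, 7.92 in INS_3 and 8.45 in WT_2, against 6.71 in DEL_2, 6.59 in INS_2 and 6.11 in WT_3 (mean difference 1.56). HSPA8, the constitutive HSP70, differed by 0.85, HSPB1 by 0.84, HSP90AA1 by 0.52 and HSPA1A, the inducible HSP70, by 0.45. HSPA4L, an HSP110 family member, differed by -1.11. ER chaperones, the targets of the other arms of the unfolded protein response, had 0 of 29 beyond the limit and a median of -0.08.

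In glycolysis and hypoxia 2 of 31 genes were higher on side A, and 0 were lower. ALDOC, aldolase C, read 7.34 in DEL_3, 7.31 in INS_3 and 7.91 in WT_2, against 6.20 in DEL_2, 6.36 in INS_2 and 5.82 in WT_3 (mean difference 1.39), and PFKFB4, a regulator of glycolytic flux, differed by 1.11, but by 0.45 over its probe sets. The enzymes LDHA, PGK1 and GPI differed by 0.57, 0.61 and 0.60, while the glucose transporter SLC2A1 differed by -0.90 and VEGFA by 0.02. Ribosome biogenesis had 0 of 36 beyond the limit, and 25 had 3 positive differences, against 33.0% of all genes. POLR1C, a subunit shared by RNA polymerases I and III, differed by 0.91 and MYC by 0.38. NOP58, a small nucleolar ribonucleoprotein, differed by -0.40.

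Cell cycle genes beyond the limit were few and lay in both directions. In DNA replication 2 of 33 were lower on side A: CCNE2, cyclin E2 (-1.68), and RRM2, the small subunit of ribonucleotide reductase (-1.19), with a median of -0.10. In mitosis 1 of 37 was higher, CCNB1, cyclin B1 (1.16), whereas CDK1, its kinase partner, differed by -0.56. Among 24 p53 and arrest genes CCND1, cyclin D1, was higher (1.43, but 0.72 over its probe sets) and CDKN1A, the inhibitor p21, lower (-1.0015, or -0.98 after quantile normalization), with a median of -0.16. Cyclins thus lay in both directions, and the medians of these lists were below 0.2 in size.

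Lineage genes beyond the limit were likewise few and in both directions. In the megakaryocyte and platelet list CD9 (-1.65, or -1.0027 over its probe sets), a tetraspanin, and ITGA2B (-1.07, but -0.60), the platelet integrin alpha IIb, were lower on side A, TUBB1 (1.23), the platelet beta-tubulin, was higher, and the median of 27 was 0.02. Of 27 red cell membrane and regulator genes ERMAP (-1.74, but -0.72 over its probe sets), the Scianna blood group protein, and RHD (-1.46) were lower, with a median of -0.14. HBD, delta-globin, was the only one of 22 globin and haem genes beyond the limit (1.35). RHD and HBD have near-identical relatives whose RNA could bind the same probes. ALAS2, the erythroid enzyme that starts haem synthesis, differed by -0.74. In the TGF-beta list ID3 (-1.47), an inhibitor of helix-loop-helix factors, was lower and the receptor TGFBR2 (1.23) higher, and in the lysosome list GABARAPL1 (-1.17), an autophagy protein, was lower. Over their probe sets TGFBR2 differed by 0.72 and GABARAPL1 by -0.59, short of the limit.

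NRF2 targets (0 of 31 beyond the limit, median 0.15) included NQO1, a quinone reductase, at 0.75. Proteasome subunits (0 of 28, median 0.03), MHC class I genes (0 of 18, median 0.09), respiratory chain subunits (0 of 38, median 0.04), ribosomal proteins (0 of 33, median 0.06) and histones (0 of 31, median -0.04) had no member beyond the limit.

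Marker lists of other cell types had no gene beyond the limit. The median log2 level of 20 granulocyte and monocyte markers was 2.85 to 2.93 on side A and 2.81 to 2.87 on side B, and only LYZ exceeded the highest antigenomic control on average. For 18 lymphoid markers it was 3.51 to 3.62 on side A and 3.53 to 3.59 on side B, with 0 above that control. For 20 markers of fibroblasts, endothelia and epithelia it was 3.15 to 3.19 on side A and 3.12 to 3.15 on side B, with 4 above it. The largest difference among these markers was that of CD3D, a T cell receptor subunit (0.69). The 13 K562 markers read 8.46 to 8.61 on side A and 8.29 to 8.55 on side B, and 11 of them exceeded that control.

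Some technical controls differed with the sides. The actin 3′ minus 5′ difference, a measure of RNA integrity and labelling, was 1.08 to 1.24 on side A and 1.31 to 1.38 on side B. The cre hybridisation spike read 11.87 to 11.95 on side A and 12.03 to 12.07 on side B. Both were separate between the sides, and their part in the gene differences was not tested. The controls named here were picked from 93 control probe sets, and the share of all controls that were separate is not given. The GAPDH 3′ minus 5′ difference (0.03 to 0.10 on side A, 0.09 to 0.17 on side B), the 18S control (8.63 to 10.06 on side A, 9.72 to 10.87 on side B) and the bioB spike (5.89 to 6.07 on side A, 6.02 to 6.15 on side B) overlapped. So did the dap labelling spike (6.88 to 7.35 on side A, 7.13 to 7.25 on side B). These control values had equal replicate means too. Array medians were alike, at 3.73 to 3.76 over all 9 arrays.

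Differences between arrays of one replicate number are not touched by any shift common to that number, and they show the axis in another form. The mean of both mutants minus WT was taken within each number. For SRGN it was -0.24 in replicate 1, 3.89 in replicate 2 and -3.63 in replicate 3. For COL15A1 it was 0.09, -3.06 and 3.76 in the same order, and for BST2 -0.18, -2.00 and 2.40. Each of these genes reversed between replicates 2 and 3 and lay near 0 in replicate 1. CXCL8 gave 0.11, -2.95 and 2.75, and JUN -0.36, 2.28 and -2.63. CTH gave -1.04, 2.94 and -2.81, and ATF3 -1.18, 2.34 and -2.50. In replicate 1 the values of these 2 genes came from DEL_1 alone. CTH read 5.70 in DEL_1, 8.40 in INS_1 and 8.09 in WT_1, and ATF3 read 5.72, 8.09 and 8.08 in the same order.

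**Figure D4:**
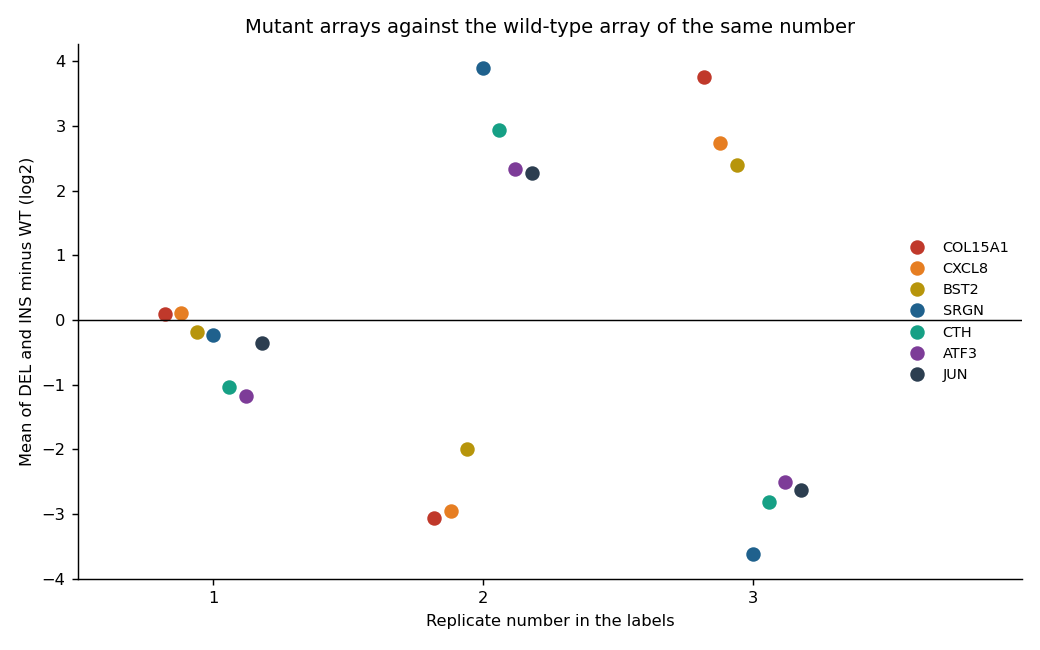
Mean of the Del52 and Ins5 arrays minus the WT array of the same replicate number (y axis, log2) for the 7 marking genes in replicates 1, 2 and 3 (x axis; points are offset sideways for legibility). COL15A1, CXCL8 and BST2 are below 0 in replicate 2 and above 0 in replicate 3, and SRGN, CTH, ATF3 and JUN are the reverse. In replicate 1 CTH (-1.04) and ATF3 (-1.18) lie lowest, through the DEL_1 array alone.

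Over all genes the root mean square of this mutant minus WT difference was 0.18 in replicate 1, 0.39 in replicate 2 and 0.39 in replicate 3. Across genes it correlated at -0.85 between replicates 2 and 3, at -0.11 between replicates 1 and 2 and at 0.19 between replicates 1 and 3. The first of these values restates the choice of the sides. The list medians were not uniform. Cholesterol synthesis gave 0.07 in replicate 1, -0.40 in replicate 2 and 0.54 in replicate 3, the same course as COL15A1. The ATF4 pathway gave -0.36, 0.17 and -0.48, with a larger size in replicate 1 than in replicate 2. Some lists with side medians near 0 did not reverse: chemokines gave 0.10, 0.04 and 0.07, and proteasome subunits 0.05, 0.03 and 0.11.

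The arrays of replicate 1 were placed in neither side because they lay between the ends of the axis, so a middle position was part of that choice. Their differences from each other were free, although their mean was fixed. Placed on a scale from 0 at the side B mean to 1 at the side A mean, DEL_1 lay at 0.62, INS_1 at 0.44 and WT_1 at 0.44. Across genes the side difference correlated with DEL_1 minus INS_1 at 0.27, with DEL_1 minus WT_1 at 0.25 and with INS_1 minus WT_1 at -0.01. DEL_1 thus lay toward side A, by a small part of the distance.

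The position of DEL_1 among the arrays of replicate 1 differed between gene groups. Of 23 ATF4 pathway genes 21 (91.3%) were lowest in DEL_1 among the arrays of replicate 1, against 34.2% of all genes, and the median of DEL_1 minus the mean of INS_1 and WT_1 was -0.86, against 0.01 over all genes. CTH read 5.70 in DEL_1, 8.40 in INS_1 and 8.09 in WT_1. ATF3 read 5.72 in DEL_1, 8.09 in INS_1 and 8.08 in WT_1. In both genes DEL_1 lay near WT_2, the lowest array of side A, and INS_1 and WT_1 lay near side B. TRIB3, which did not differ between the sides, read 7.97 in DEL_1, 9.56 in INS_1 and 9.30 in WT_1, and DDIT4, an inhibitor of mTORC1, read 8.46, 10.58 and 10.69 in the same order. For the serine, asparagine, proline and transsulfuration enzymes the median was -0.63, with 13 of 17 lowest in DEL_1 (76.5%).

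The lists higher on side A were mostly highest in DEL_1. DEL_1 was the highest of the 3 arrays in 22 of 26 cholesterol and lipid genes, 28 of 36 ribosome biogenesis genes and 19 of 25 heat shock genes. In glycolysis and hypoxia it was the highest in 19 of 31 genes, against 7233 of all 18239 genes (39.7%). The median of DEL_1 minus the mean of INS_1 and WT_1 was 0.15 for cholesterol and lipid, 0.21 for ribosome biogenesis and 0.25 for heat shock genes. In glycolysis and hypoxia it was only 0.04. DEL_1 was as often highest in lists that were near 0 or lower on side A: 23 of 33 DNA replication genes (side median -0.10), 20 of 27 red cell genes (-0.14) and 23 of 28 proteasome subunits (0.03). It was lowest in 23 of 33 ribosomal protein genes (0.06). The position of DEL_1 thus did not follow the axis in all lists. With 1 array per construct these are descriptions, and they belong to 1 array that also stood apart elsewhere. DEL_1 had a score of 0.79 on the second component, against -0.51 to 0.12 for the other arrays, and the highest labelling spike (dap, 7.38) and bioB spike (6.18) of all 9 arrays. Their part in these values was not tested.

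The genes with the largest side differences varied unequally in replicate 1. Of the 15 largest in each direction, 17 of 30 had a range under 0.5 log2 units among DEL_1, INS_1 and WT_1, and 5 had a range of at least 1 (AMIGO2, CTH, EPAS1, JUN and ATF3), with a median of 0.44. SRGN read 4.34 in DEL_1, 4.13 in INS_1 and 4.47 in WT_1, TRDN read 4.10, 4.05 and 4.01, and HEPACAM2 read 5.85, 5.65 and 5.61 in the same order. BST2 read 8.33 in DEL_1, 7.79 in INS_1 and 8.24 in WT_1. Their means sat midway between the sides, as the equal replicate means require, and spanned at most 0.53 log2 units. Over all genes 170 (0.932%) had a range of at least 1 log2 unit in replicate 1. Of genes higher on side A 4 of 131 (3.05%) did, and of genes lower on side A 25 of 230 (10.9%) did. The median range was 0.31 in the genes higher on side A and 0.37 in the lower ones, against 0.16 over all genes.

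**Figure D5:**
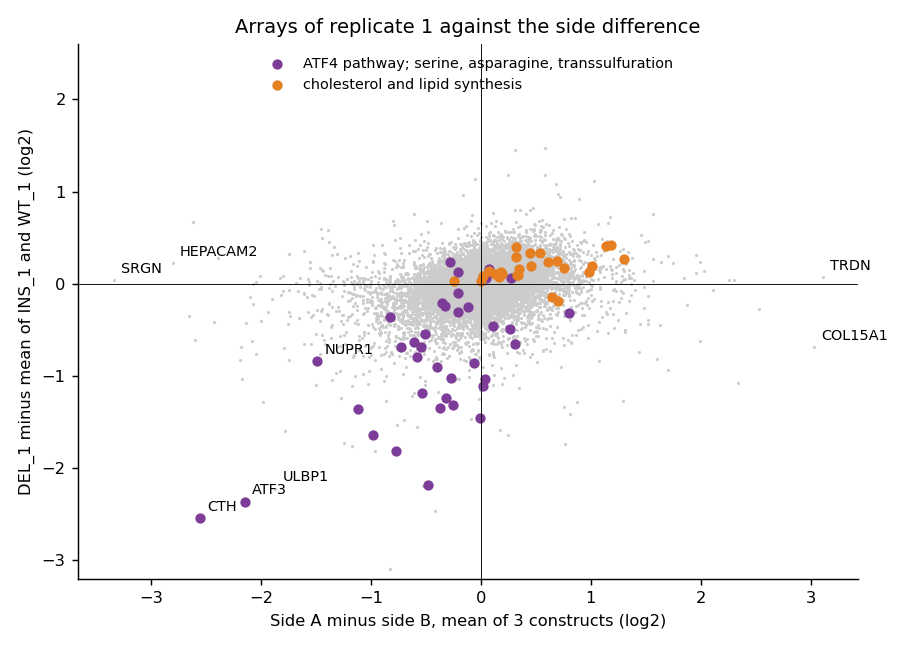
Each point is a gene, with the difference between side A and side B on the x axis and DEL_1 minus the mean of INS_1 and WT_1 on the y axis (both log2). Genes of the ATF4 pathway and of amino acid synthesis (purple) extend to CTH and ATF3 at the lower left, most cholesterol and lipid genes (orange) lie at the upper right, and SRGN, HEPACAM2 and TRDN lie near 0 on the y axis.

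DEL_1 was the lowest array in 24 of the 25 lower genes with such a range, INS_1 was the highest in 20 and WT_1 in 5. Besides CTH and ATF3 these included ULBP1, a ligand of the NKG2D receptor, which read 4.78 in DEL_1, 7.03 in INS_1 and 6.98 in WT_1. TNFAIP3 read 4.95 in DEL_1, 6.94 in INS_1 and 6.48 in WT_1, and PCK2 read 6.52, 7.98 and 7.78 in the same order. NUPR1, KLF6, JUN and EPAS1 had ranges of 1.17, 1.14, 1.14 and 1.04. Among the genes higher on side A the 4 were AMIGO2, PTPRC, FAM83D and ASS1. ASS1, argininosuccinate synthase, went against the axis: it differed by 1.30 between the sides, yet DEL_1 was its lowest array at 6.28, with 8.34 in INS_1 and 6.76 in WT_1.

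The construct comparisons of the study were tested on all 9 arrays, a measure that the sides balance. In Del52 against WT and in Ins5 against WT, 0 of 18239 genes (0%) passed limma with Benjamini-Hochberg adjustment, and 0 passed the moderated F test over the 3 groups. The unadjusted limma p was under 0.05 in 1285 genes for Del52, 1351 for Ins5 and 1318 for the F test, and the smallest adjusted p was 0.603, 0.373 and 0.652. With the replicate number as a block, 0 genes passed and 386, 386 and 244 had an unadjusted p under 0.05. That block changes no fold change, since the replicate means were already equal. It lowers the residual degrees of freedom to 4, the number that equal replicate means leave. The fit without the block counts 6, so it understates the error and its p-values run too small. For SRGN the standard error of Del52 against WT was 1.27 without the block and 1.46 with it.

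The 361 genes that differed between the sides were chosen for a large difference between arrays of the same construct, which raises their error in this test, so their p-values are not given. Their log2 fold changes ran from -0.83 to 0.36 for Del52 and from -0.63 to 0.57 for Ins5, and the median standard error was 0.49, against 0.08 over all genes. SRGN had a Del52 fold change of 0.02 ± 1.27 (SE) and ATF3 one of -0.83 ± 0.94, both limma fits over 3 arrays a group. The standard errors here are those without the replicate block. The arrays of a construct lay on both sides of the axis, and that distance enters the standard error of these genes.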

How the data were processed

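Per the submitters' processing notes, the authors made the deposited log2 values per probe set with RMA and Partek. RMA subtracts background, equalises the arrays and combines the probes of a set. No version, setting or batch step is given in the sources used here. The log base was read from the values (highest 12.2). Of 49386 probe sets, 93 controls were left out, 45253 had 1 gene symbol, 1327 several and 2713 none. Of those with 1 symbol, 45172 matched RefSeq (GRCh38.p14). Each gene was represented by its probe set of highest mean. Arrays give no read depth, and their number limits precision.

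The side contrast is the mean of DEL_3 minus DEL_2, INS_3 minus INS_2 and WT_2 minus WT_3, with the construct as a block and no test. Construct contrasts used limma 3.58.1 in R 4.3.3 on all 9 arrays without a block (two-sided, nominally 6 residual degrees of freedom, 4 with the replicate block). Other values were computed in Python 3.11.15 with numpy 2.4.6.

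Members and gene lists were chosen with earlier results of these data known. Named genes were the 7 markers, the 15 largest differences each way with 3 equal signs, up to 4 genes beyond the limit per list or else its most extreme member, CALR and NGFR. Further members are named as background to a list, a choice made after their values were seen. Replicate numbers are shared between groups, but equal replicate means prevent a check of pairing. Alternatives were quantile normalization, the brighter genes only (above the median level), centring on the median, averaging all probe sets of a gene, an intensity trend, a limit of 0.5 log2 units, the replicate block, 6 arrays with the side as block, and each array left out.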

Additional observations from a re-analysis of the deposited data

Results flagged for a closer look

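Constructs differed in the direction of the change between replicates 2 and 3. The score on the first component, replicate 3 minus replicate 2, was 0.58 in Del52 and 0.57 in Ins5, against -1.14 in WT. The difference was not tested, with 1 array per construct and replicate, and the 3 values sum to 0 because the replicate means are equal.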

How the results depend on the processing

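With a limit of 0.5 in place of 1 log2 unit, 921 genes were higher and 1036 lower on side A. Leaving out 1 array with its partner of the same construct gave 46 to 213 higher genes and 101 to 324 lower genes. The lowest counts came without the WT pair (46 and 101), whose difference is the sum of the other 2, and the 213 without the Ins5 pair. Lists with a median of at least 0.2 in size numbered 4 to 6 on leaving arrays out, and 8 among genes above the median level, where red cell genes (-0.24) and markers of fibroblasts, endothelia and epithelia (-0.32) passed it. With each array left out in turn, 0 genes passed the construct contrasts. Quantile normalization, median centring, the restriction to genes above the median level and the mean of all probe sets kept the counts of the side contrast within 1.5 times. The replicate block gave 0 genes in the limma contrasts, as did the intensity trend and 6 arrays with the side as block. Pairing by replicate number could not be checked. Of the values of single genes and lists under these settings, 1010 stayed within the spread between constructs, 52 moved beyond it, and no gene beyond the limit changed direction. With the mean of all probe sets 11 of 59 named genes beyond the limit fell short of it, without the WT pair 16, and with quantile normalization 1. Signal over background limits genes near the antigenomic controls (1.53 to 6.52): the lowest probe set read 1.10 in WT_2 and 0.93 in WT_3, against 1.46 to 1.55 in the other arrays.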
